A study of Mus musculus with 6 samples.

Results

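The 50 genes described here encode the machinery of G2 phase and mitosis: cyclins and Cdk1, mitotic kinases, the spindle checkpoint, kinesins, kinetochore proteins, spindle and cytokinesis proteins, and condensin. They were chosen by gene symbol, with earlier results of these data known, from the 22482 genes of the deposited mRNA table. Each of the 50 symbols was found. RNA was sequenced from cultured smooth muscle cells of the aorta (VSMCs) of C57BL/6 mice, in DMEM with 10% FBS, 48 h after adenovirus was added. By their labels 3 libraries, titled ADV, received an adenovirus meant to knock down Myocd, and the 3 titled Ctrl a negative control virus. The design text instead names the Ctrl cells wildtype; if they had no virus, effects of the virus and of Myocd cannot be told apart. Whether replicate libraries are separate cultures is not stated, so p-values measure no more than how far these libraries spread, and that spread may be technical.

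The targeted gene went against the labels. Myocd encodes myocardin, a partner of serum response factor at smooth muscle genes. Its level was 132, 130.1 and 146 FPKM (fragments per kilobase of transcript, scaled to library size) where the label says knockdown, and 0.0355, 0 and 0.125 FPKM where it says control. The difference had a log2 fold change of 9.87 (SE 0.27, limma adjusted p = 1.11e-05), higher in 3 of 3 libraries labelled knockdown. Libraries are therefore called by their labels, and "fell" below means lower in the libraries labelled knockdown, which are those with more Myocd RNA.

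Cells that leave G1 copy their DNA in S phase and then raise a set of transcripts that peak in G2 and mitosis. Cyclin B with Cdk1 starts mitosis, kinesins and microtubule-binding proteins build the spindle, kinetochores attach chromosomes to it, and the spindle checkpoint holds back the anaphase-promoting complex until all are attached. Many of these genes carry a CHR element (cell cycle genes homology region) and boxes for the factor NF-Y in their promoters. Through the CHR the DREAM complex holds them off in resting cells, and B-Myb and Foxm1 switch them on. Smooth muscle cells of a healthy artery rarely divide, whereas those in serum culture or in a damaged wall do.

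Depth over protein-coding genes was 7528170 to 9793781 recovered fragments per library, lowest in knockdown 3. Among the markers of mature smooth muscle, Myh11 averaged 0.0604 FPKM in the libraries labelled knockdown and 0.0132 in those labelled control, and Cnn1 was at 0.275 and 0.0270. Both were too low to test, with 0 to 6 and 0 to 8 fragments per library. Acta2 was at 340.2 and 67.2 FPKM, while Smtn, the next most abundant, was at 56.5 and 57.6 with overlapping groups. The summed level of 8 such markers, mostly Acta2, ran from 404 to 428 against 119 to 143 FPKM. Of these 6 were tested, and limma called 4 higher: Acta2, Lmod1, Myl9 and Synpo2 (1.83% of all tested genes rose). Tagln was at 7.52 and 0.637 FPKM and did not pass (limma adjusted p = 0.0555). EdgeR called 5 of the markers higher and DESeq2 2. Of 8 endothelial markers, all were too low to test (sum at most 0.916 FPKM, Emcn at 0). Of 8 macrophage markers 3 were tested, and the sum was 20.6 to 24.5 against 22.4 to 26.4 FPKM, mostly Cd14 and Cd68, with Tyrobp at 0. Of 8 fibroblast markers 5 were tested, and the sum was 78.1 to 90.8 against 81.6 to 94.3. Of 8 mesothelial and epithelial markers 2 were tested, Msln and Krt19, with a sum of 302 to 326 against 320.0 to 354 and Epcam at 0. Limma called 0 genes of these last 3 marker lists, in which 4 genes reached an unadjusted p under 0.05 and edgeR and DESeq2 also called 0. The part of cell type makeup in the results below was not tested.

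Of the 50 mitotic genes 8 fell and 42 did not pass the test. Those that fell were the transcription factor gene Foxm1, the cyclin gene Ccnb2, the kinesin genes Kif20a and Kif2c, the checkpoint kinase gene Bub1, the passenger complex gene Birc5, the condensin subunit gene Ncapd2 and the proliferation marker Mki67. Each fell by a modest step, between 13.2% (Birc5) and 23% (Foxm1) of the control mean. That is 16.0% of the members, where 1.61% of all 11612 tested genes fell in the same test and 3.44% passed in either direction. Of the 6637 genes with a mean at or above that of the lowest member, 2.15% fell. Because earlier results of these data were known when the members were chosen, these shares and those below are a description. The test was limma on log2(FPKM + 0.1) with Benjamini-Hochberg adjustment over all tested genes and a threshold of 0.05. All 50 members passed the filter of 0.5 FPKM in 3 of 6 libraries.

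The shift was spread over the set. A negative log2 fold change was found in 45 of 50 members, and in 52.2% of all tested genes. The median was -0.15 among members and -0.01 among all tested genes. In 28 members the 3 libraries labelled knockdown all lay below the 3 labelled control, as in 15.6% of all tested genes, and in 2 members, Spc25 and Ckap2, they all lay above, as in 13.3%. The members' summed level was 2438 to 2493 FPKM in the libraries labelled knockdown and 2632 to 2729 in those labelled control. Limma called 0 members higher (1.83% of all tested genes rose), with 1 member higher at an unadjusted p under 0.05 (10.2% of all tested genes) and 21 lower (12.2%). On recovered fragments edgeR called 21 members lower, against 4.5% of its tested genes, and 1 higher, against 5.45%; DESeq2 called 15 lower (3.38%) and 0 higher (4.15%). These are bulk samples, so fewer dividing cells and less of each RNA per dividing cell cannot be told apart.

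**Figure D1:**
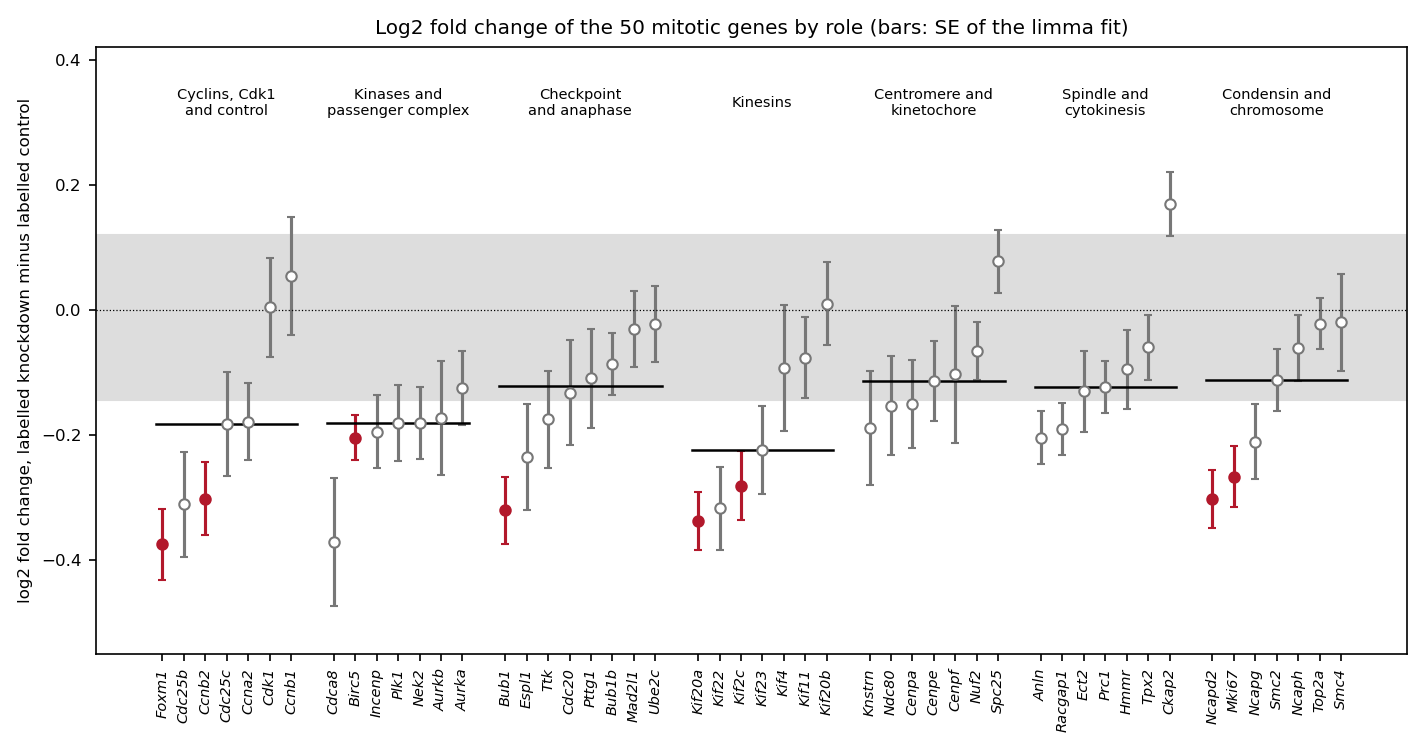
Log2 fold change (libraries labelled knockdown minus labelled control) of the 50 genes, in blocks by role. Points carry the SE of the limma fit, filled points are the 8 genes that fell, black lines are block medians, and the grey band holds the middle of all tested genes, from -0.14 to 0.12; 45 of the 50 points lie below 0.

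The 8 calls were lost in many settings. With 1 library left out, limma called 0 members without knockdown 1, knockdown 2, control 1 or control 2, 3 without knockdown 3 and 1 without control 3, while the median log2 fold change stayed between -0.16 and -0.13. The calls also ended without both libraries numbered 3 (0 members) and without limma's intensity trend (0 members), and 3 remained with replicate number as a block.

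Promoters of the set are shown here because genes of this kind are known to share promoter elements. RefSeq promoters (build GRCm38.p6, 250 bases before to 50 after the start site) were at hand for 42 of the 50 members; no entry was used for Ccna2, Cdc25c, Foxm1, Aurkb, Incenp, Kif20a, Tpx2 and Smc4. The CHR element was searched as TTTGAA and the NF-Y box as CCAAT, each on both strands. Only these exact letters were searched, so a variant form of either element counts as no match. Matches of the 2 motifs can share at most 1 base. For 36 of the 42 members the RefSeq start lay within 200 bases of the start of the gene in the deposited table. The lines below give 130 bases before to 30 after the start, 5′ to 3′ on the gene's strand, with every CHR and NF-Y match in capitals (a match on the other strand reads TTCAAA or ATTGG). They are 5 genes that fell and had an entry, with Kif2c left out because its entry lies 3867 bases from the table's start.
Ccnb2, chr9:70421525-70421684, minus strand: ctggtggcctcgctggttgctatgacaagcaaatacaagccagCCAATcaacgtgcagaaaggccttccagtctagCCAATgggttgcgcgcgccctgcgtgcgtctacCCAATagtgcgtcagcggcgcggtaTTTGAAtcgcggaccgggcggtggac
Mki67, chr7:135716350-135716509, minus strand: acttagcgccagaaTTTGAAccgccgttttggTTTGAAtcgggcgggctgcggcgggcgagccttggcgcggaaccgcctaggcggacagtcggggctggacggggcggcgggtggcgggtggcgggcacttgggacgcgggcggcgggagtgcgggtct
Ncapd2, chr6:125191557-125191716, minus strand: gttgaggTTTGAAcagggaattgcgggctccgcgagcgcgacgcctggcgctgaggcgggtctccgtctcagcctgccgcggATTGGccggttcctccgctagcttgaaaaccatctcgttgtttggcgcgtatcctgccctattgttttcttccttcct
Bub1, chr2:127831830-127831989, minus strand: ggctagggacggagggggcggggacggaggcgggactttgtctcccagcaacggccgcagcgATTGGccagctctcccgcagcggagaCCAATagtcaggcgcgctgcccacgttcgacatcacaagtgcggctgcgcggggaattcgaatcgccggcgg
Birc5, chr11:117849107-117849266, plus strand: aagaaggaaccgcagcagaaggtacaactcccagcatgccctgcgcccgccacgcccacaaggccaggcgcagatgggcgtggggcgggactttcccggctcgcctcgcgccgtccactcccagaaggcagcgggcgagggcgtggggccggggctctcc
Among these, Ccnb2 has 3 NF-Y boxes upstream of 1 CHR element that starts just after the start site, Mki67 has 2 CHR elements and no NF-Y box in the stretch, and Birc5 has neither. The next lines are 3 members that did not pass: Cdk1 and Top2a, the most abundant members, and Ckap2, the member with the highest log2 fold change.
Cdk1, chr10:69352883-69353042, minus strand: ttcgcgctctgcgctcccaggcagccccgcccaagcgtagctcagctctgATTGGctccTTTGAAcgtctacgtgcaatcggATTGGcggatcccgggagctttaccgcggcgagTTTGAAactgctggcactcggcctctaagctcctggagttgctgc
Top2a, chr11:99024160-99024319, minus strand: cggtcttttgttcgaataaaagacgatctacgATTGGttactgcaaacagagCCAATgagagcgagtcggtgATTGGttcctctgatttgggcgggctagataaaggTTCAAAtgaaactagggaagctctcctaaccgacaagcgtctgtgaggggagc
Ckap2, chr8:22185790-22185949, minus strand: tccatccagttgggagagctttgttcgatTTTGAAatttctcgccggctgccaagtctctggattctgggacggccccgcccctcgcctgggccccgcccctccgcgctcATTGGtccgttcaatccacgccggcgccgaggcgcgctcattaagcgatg
Cdk1 and Top2a, whose levels differed by less than the spread between libraries, held both kinds of element, as did Ccnb2, Ncapd2 and Ckap2. A match is a description of these letters, not a measured binding site.

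Across the 42 promoters 31 (73.8%, exact 95% interval 58.0 to 86.1) held a CHR match, against 20.2% of the promoters of all 27025 genes and 14.0% of those of tested genes. NF-Y boxes were in 32 (76.2%), against 41.1% of all promoters, and both were in 27 (64.3%), against 8.97%. In the shorter window from 100 bases before to 50 after the start, 28 members (66.7%) held a CHR match against 9.23% of all promoters. The matches gathered near the start. In the first 25 bases after it 28.6% of members had a CHR match, against 1.25% of all promoters. NF-Y boxes were most frequent from 75 to 51 bases before the start, in 31.0% of members against 7.28%. The median log2 fold change was -0.13 in the 31 members with a CHR match and -0.11 in the 11 without; in the shorter window it was -0.13 and -0.15, the other order. That difference was not tested, and members without an entry are not in it. Of the E2F site forms searched, TTTCGCGC was in 1 member promoter, that of Cdk1 (2.38%, against 0.374% of all) and TTTGGCGC in 1, that of Ncapd2 (against 0.585%).

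**Figure D2:**
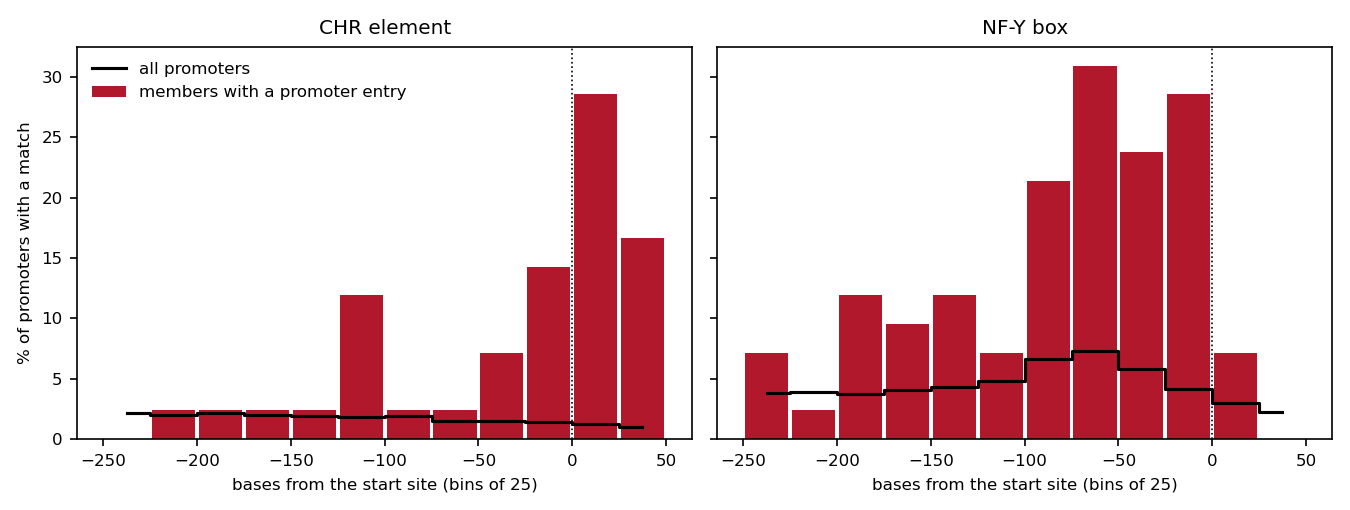
Share of promoters with a match in bins of 25 bases, by distance of the bin from the start site in bases, for the CHR element (left) and the NF-Y box (right). Bars are the 42 members with an entry and the line is all promoters; the highest bars are 28.6% just after the start for CHR and 31.0% before it for NF-Y.

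Among cyclins, Cdk1 and their regulators, 2 of 7 fell and 5 did not pass, with a median log2 fold change of -0.18. Foxm1 encodes the transcription factor that drives G2 and mitotic genes. Its locus in the deposited table (chromosome 6, 128362967 to 128408932 in mm10) spans 45966 bases, against 12893 for the RefSeq gene. That locus also overlaps 2 other genes of the table. Foxm1 was at 31.2, 29.1 and 30.3 FPKM in knockdown 1 to 3 and at 37.5, 39.0 and 41.3 in control 1 to 3. The groups did not overlap, and its fall was the deepest of the members, from 39.2 ± 1.91 to 30.2 ± 1.07 FPKM (SD, n = 3 each; log2 -0.38, SE 0.06, limma adjusted p = 0.0224). Ccnb2, a B-type cyclin that activates Cdk1 (chromosome 9, 70407689 to 70421554), was at 39.9, 36.0 and 38.1 against 45.1, 48.9 and 46.6 FPKM (log2 -0.30, SE 0.06, limma adjusted p = 0.0416). Its libraries did not overlap either. Ccnb1, the other main B-type cyclin, was at 59.4, 53.5 and 52.7 against 57.2, 56.7 and 46.1 FPKM, with the lowest value in control 3 (log2 0.05, SE 0.09, limma adjusted p = 0.772). The mitotic kinase gene Cdk1 was at 249, 214 and 226 against 241, 239 and 207 FPKM (log2 0.00, SE 0.08). Its groups overlapped, and the spread within each was wider than the difference between them.

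The phosphatases that activate Cdk1 and the S and G2 cyclin Ccna2 stood between those extremes. Cdc25b was at 31.2, 30.5 and 37.2 against 39.6, 39.9 and 42.8 FPKM. The groups did not overlap, but knockdown 3 lay near the control libraries, and it did not pass (log2 -0.31, SE 0.08, limma adjusted p = 0.0899; edgeR adjusted p = 0.00888). Ccna2 was at 97.2, 98.7 and 90.5 against 108, 116 and 101 FPKM (limma adjusted p = 0.149; edgeR adjusted p = 0.0373). Cdc25c, the lowest of the 7, averaged 12.6 ± 0.933 against 14.3 ± 0.846 FPKM from 193 to 297 fragments per library, so counting error alone is up to 7.20% there (limma adjusted p = 0.245).

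Of the mitotic kinases and the chromosomal passenger complex 1 of 7 fell and 6 did not pass, and all 7 had a negative log2 fold change (median -0.18). Birc5, which encodes survivin, the passenger complex subunit that reads the centromere mark, was at 118, 117 and 119.6 against 136, 139 and 134 FPKM (chromosome 11, 117849251 to 117855743). Its replicates were tight and apart (log2 -0.20, SE 0.04, limma adjusted p = 0.0317). The other 3 subunits had lower mean values and did not pass in limma. Cdca8, which encodes borealin, was at 22.4, 21.9 and 18.6 against 26.6, 30.2 and 24.7 FPKM, a log2 fold change as deep as that of Foxm1 with a wider error (log2 -0.37, SE 0.10, limma adjusted p = 0.0925; edgeR adjusted p = 0.0205). The scaffold Incenp averaged 27.0 ± 0.781 against 30.9 ± 1.61 FPKM (limma adjusted p = 0.115; edgeR adjusted p = 0.0383). Aurkb, the kinase of the complex, averaged 38.9 ± 2.94 against 43.9 ± 4.50 FPKM with overlapping groups (log2 -0.17), and edgeR on fragments gave -0.04. Plk1, Nek2 and Aurka, kinases of centrosomes and mitotic entry, had log2 fold changes of -0.18, -0.18 and -0.13, each with groups that did not overlap and with limma adjusted p from 0.129 to 0.265. Of the 3, edgeR called Nek2 lower (adjusted p = 0.0314).

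In the spindle checkpoint and anaphase group 1 of 8 fell and 7 did not pass (median log2 fold change -0.12, all 8 negative). Bub1, the kinase that recruits checkpoint proteins to kinetochores, was at 36.8, 36.7 and 33.7 against 45.2, 45.1 and 43.6 FPKM (chromosome 2, 127801122 to 127831865). The gap between the groups exceeded the spread within either (log2 -0.32, SE 0.05, limma adjusted p = 0.0281; edgeR adjusted p = 0.00741). Bub1b, its relative BubR1 that inhibits the anaphase-promoting complex, was at 28.4, 28 and 28.5 against 29.2, 30.9 and 30.1 FPKM (log2 -0.09, SE 0.05, limma adjusted p = 0.342). That is a small shift between groups that did not overlap, and edgeR called Bub1b lower (log2 -0.17, adjusted p = 0.0300). Espl1, the protease separase and the lowest of all 50 members, averaged 9.87 ± 0.636 against 11.6 ± 0.651 FPKM (limma adjusted p = 0.164; edgeR adjusted p = 0.0411). Ttk, the checkpoint kinase Mps1, averaged 15.1 ± 1.22 against 17.1 ± 0.646 FPKM. Mad2l1, the checkpoint protein that binds Cdc20, and Ube2c, the ubiquitin-conjugating enzyme of the anaphase-promoting complex, were nearest to 0 in this group (log2 -0.03 and -0.02). Cdc20, the activator of that complex, and Pttg1, the separase inhibitor securin, had log2 fold changes of -0.13 and -0.11 with overlapping groups.

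Mitotic kinesins had the lowest median of the 7 role groups (-0.22), with 2 of 7 that fell and 5 that did not pass. Kif20a, the motor that carries the passenger complex to the midzone, was at 31.2, 30.8 and 32.4 against 40.0, 39.4 and 40.0 FPKM. It had the smallest p of the members (log2 -0.34, SE 0.05, limma adjusted p = 0.0167) and stayed below 0.05 in 13 of 19 other settings, with adjusted p from 7.10e-06 to 0.0761. Kif2c, the microtubule depolymerase MCAK at centromeres (chromosome 4, 117159639 to 117182639), was at 18.0, 18.7 and 18.5 against 22.8, 22.6 and 21.8 FPKM (log2 -0.28, SE 0.06, limma adjusted p = 0.0422). In both genes the values of a group lay close together and well apart from the other group. Kif22, a chromosome arm motor, was just short of the threshold at 26.0, 23.3 and 22.7 against 30.2, 29.0 and 30.5 FPKM (log2 -0.32, limma adjusted p = 0.0511, edgeR adjusted p = 0.0127). Kif23, a motor of the central spindle, averaged 18.1 ± 1.17 against 21.1 ± 0.925 FPKM (log2 -0.22, limma adjusted p = 0.124, edgeR adjusted p = 0.0429). Kif11, the motor that separates spindle poles, Kif4, a midzone motor, and Kif20b overlapped between groups (log2 -0.08, -0.09 and 0.01). For Kif4 control 1 stood above the rest, at 25.4 FPKM against 20.3 and 20 in the other controls.

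**Figure D3:**
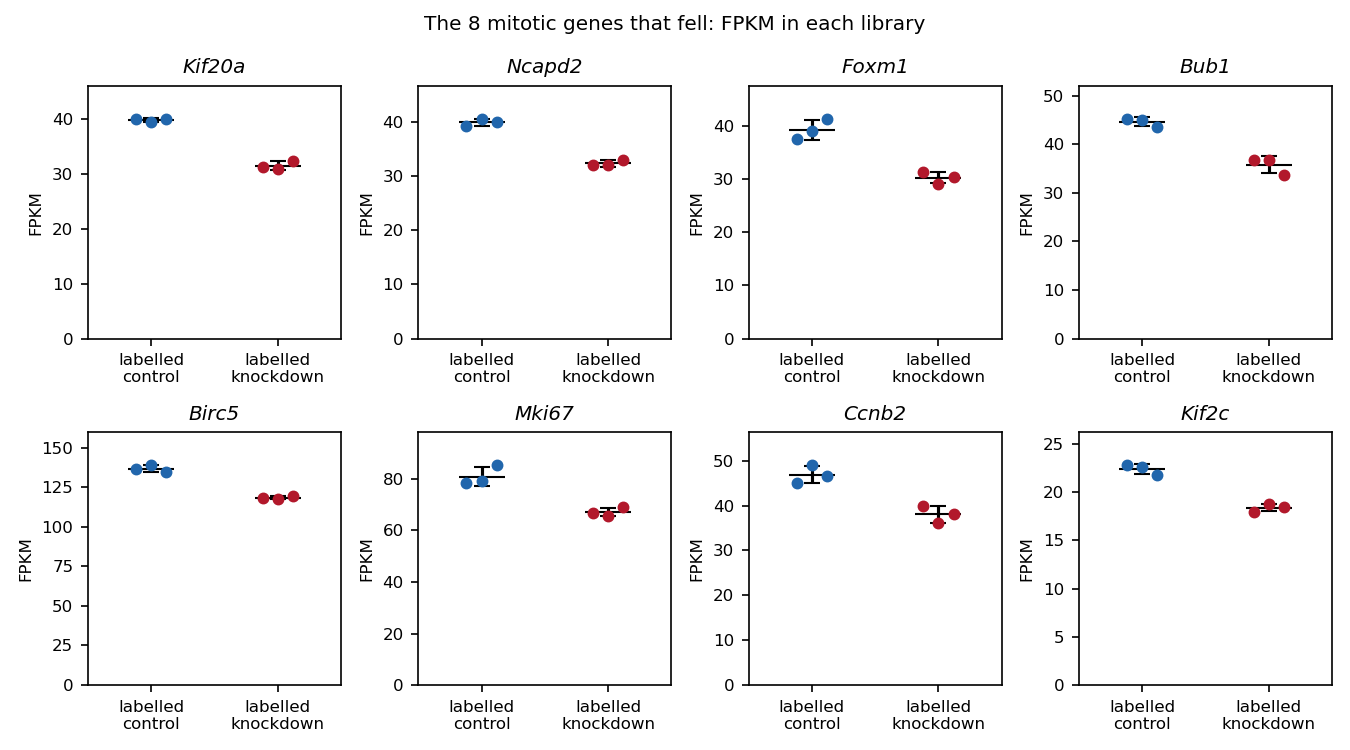
FPKM in each library of the 8 genes that fell, with axes from 0, libraries labelled control in blue and labelled knockdown in red; the bar and whiskers are the mean and SD of 3. In each panel the groups do not overlap, as for Kif20a with 39.4 to 40.0 against 30.8 to 32.4 FPKM.

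Limma called 0 of 7 centromere and kinetochore genes, with 0 at an unadjusted p under 0.05; edgeR and DESeq2 each called 1, Cenpf. The median log2 fold change was -0.11. Cenpa, the histone variant that marks centromeres, averaged 55.1 ± 5.10 against 61.1 ± 2.13 FPKM (limma adjusted p = 0.261). Knstrn, a kinetochore adaptor, averaged 34.9 ± 3.79 against 39.6 ± 2.74 FPKM (limma adjusted p = 0.272). In both genes knockdown 3 was the highest of its group and inside the control range or above its lowest value. Cenpf, a large protein of the outer kinetochore, was at 32.8, 37.6 and 45 against 39.1, 41.4 and 42.6 FPKM, so that knockdown 3 lay above every control (log2 -0.10, SE 0.11). EdgeR on its 3433 to 4956 fragments gave a log2 fold change of -0.18 (adjusted p = 0.013). In the NDC80 complex, which binds microtubules, the 3 subunits among the members did not pass. Ndc80 averaged 19.8 ± 1.33 against 22 ± 1.56 FPKM, Nuf2 averaged 44.4 ± 1.49 against 46.5 ± 0.700, and Spc25 was at 37.7, 40.3 and 38.1 against 37.6, 36.8 and 35.6, higher in each library labelled knockdown without passing (log2 0.08, limma adjusted p = 0.411). Spc24, a further NDC80 subunit that is not a member, read 9.76, 7.80 and 6.95 against 13.9, 11.8 and 10.9 FPKM. Those groups did not overlap, at 73 to 186 fragments per library. For Spc24 limma gave log2 -0.58 without passing (adjusted p = 0.0780). EdgeR called Spc24 lower (adjusted p = 0.0297) and DESeq2 did not (adjusted p = 0.0595). Cenpe, the kinetochore kinesin, had a log2 fold change of -0.11.

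Limma also called 0 of 7 spindle assembly and cytokinesis genes, with 4 at an unadjusted p under 0.05 (3 lower, 1 higher); edgeR called 2 lower and 1 higher and DESeq2 2 lower. Anln, the anillin that scaffolds the contractile ring, was just short of the threshold at 66.0, 66.9 and 63.3 against 76.3, 75.9 and 73.9 FPKM (log2 -0.20, SE 0.04, limma adjusted p = 0.0507). Racgap1, a central spindle protein, was at 106, 100.4 and 104 against 116, 117 and 121 FPKM (log2 -0.19, SE 0.04, limma adjusted p = 0.0555). Both genes were apart in all 6 libraries and were called lower by edgeR (adjusted p = 0.00472 and 0.00266). Ckap2, a microtubule-stabilizing protein, ran the other way, at 38.0, 39.3 and 36.9 against 33.4, 35.0 and 33.1 FPKM. Its groups did not overlap, and it was the member edgeR called higher (limma log2 0.17, SE 0.05, adjusted p = 0.117; edgeR adjusted p = 0.0262). Prc1, which bundles midzone microtubules, Ect2, which acts in cytokinesis, and Tpx2, which promotes spindle microtubule nucleation, had log2 fold changes of -0.12, -0.13 and -0.06. For Hmmr, a spindle pole protein, the sign depended on the values used, -0.10 on FPKM and 0.03 on fragments with edgeR.

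Of 7 condensin and mitotic chromosome genes 2 fell and 5 did not pass (median log2 fold change -0.11, all 7 negative). Ncapd2, a regulatory subunit of condensin I (chromosome 6, 125168009 to 125191595), was at 31.9, 31.9 and 33 against 39.1, 40.5 and 40.0 FPKM (log2 -0.30, SE 0.05, limma adjusted p = 0.0221). Mki67, which encodes the Ki-67 protein of the mitotic chromosome surface (chromosome 7, 135689788 to 135716379), was at 66.9, 65.8 and 69.0 against 78.3, 79.3 and 85.3 FPKM (log2 -0.27, SE 0.05, limma adjusted p = 0.0360). With 6245 to 9596 fragments per library its counting error was at most 1.27%. Both genes were lower in 3 of 3 libraries labelled knockdown than in any control. The other condensin I subunits did not pass: Ncapg averaged 26.2 ± 1.56 against 30.3 ± 0.374 FPKM (limma adjusted p = 0.099; edgeR adjusted p = 0.0146), while Ncaph averaged 37.3 ± 1.0 against 38.9 ± 1.72 with overlap. The ATPases Smc2 and Smc4, shared by both condensins, had log2 fold changes of -0.11 and -0.02. Top2a, the topoisomerase that untangles sister chromatids and the member with the highest FPKM, was at 245, 233 and 227 against 237, 238 and 241 (log2 -0.02, SE 0.04).

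The 7 role groups were not tested against each other, and their counts are small. Their medians ran from -0.22 (kinesins) to -0.11 (condensin). By library, 42, 40 and 36 of the 50 members lay below their own mean in knockdown 1, 2 and 3, and 5, 6 and 16 in control 1, 2 and 3. Control 3 thus lay closest to the other group, and its median deviation was 0.05 against 0.08 and 0.10 in the other controls. The lowest value of a member was in a library labelled knockdown in 45 of 50 cases. These counts by library were not made over all tested genes, so they do not show what is particular to the members.

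**Figure D4:**
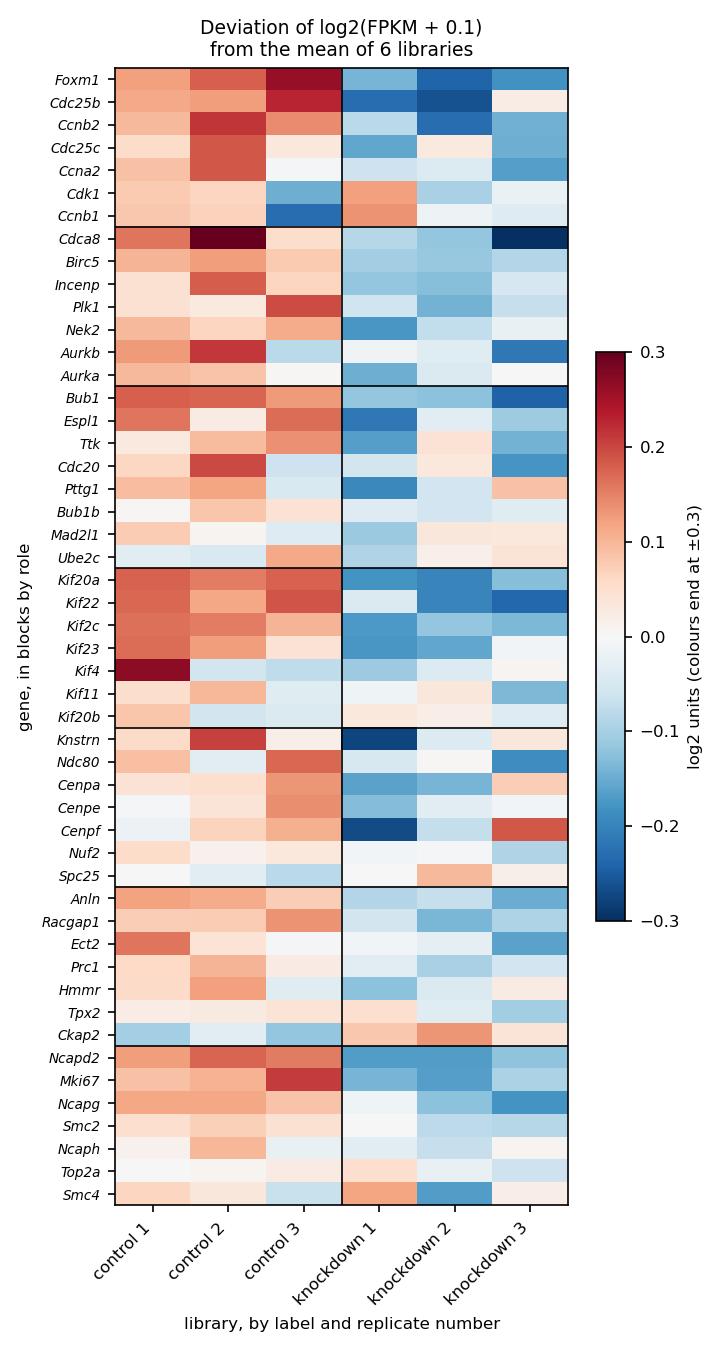
Deviation of log2(FPKM + 0.1) of each of the 50 genes (rows, in blocks by role) from its mean over 6 libraries (columns, by label and replicate number), in log2 units with colours ending at ±0.3. Control columns are mostly red (45, 44 and 34 genes above their mean) and knockdown columns mostly blue (8, 10 and 14 above).

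Pairs of related members were compared within each library, which removes what both share. The 6 pairs were chosen after their values were seen, so the ratios are a description. In each pair the numerator is a gene that fell and the denominator a member that did not pass. A lower ratio in the libraries labelled knockdown was thus largely built in by the choice. The log2 ratio of Ccnb2 to Ccnb1 was -0.57, -0.57 and -0.47 in the libraries labelled knockdown and -0.34, -0.21 and 0.01 in those labelled control. The ratio of Bub1 to Bub1b was 0.37, 0.39 and 0.25 against 0.63, 0.54 and 0.54. That of Kif20a to Kif20b was 0.84, 0.83 and 0.96 against 1.14, 1.26 and 1.27. In these pairs, on FPKM, every library labelled knockdown lay below every control, and the same held for Ncapd2 to Ncaph (difference -0.24) and Mki67 to Top2a (difference -0.24). The ratio of Birc5 to Aurkb overlapped between groups (difference -0.03). On recovered fragments, an alternative added after seeing the data, 2 pairs read differently. Bub1 to Bub1b overlapped there, with a difference of -0.10, and Birc5 to Aurkb did not overlap, with a difference of -0.15. The other 4 pairs did not overlap on either scale. An exact permutation test of each FPKM ratio gave p = 0.1 for every pair without overlap and 0.6 for Birc5 to Aurkb. After Benjamini-Hochberg adjustment these were 0.12 and 0.6, so 0 pairs passed. With 3 libraries per group that test can give no p below 0.1, so it cannot decide. The choice of pairs also keeps it from serving as support.

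**Figure D5:**
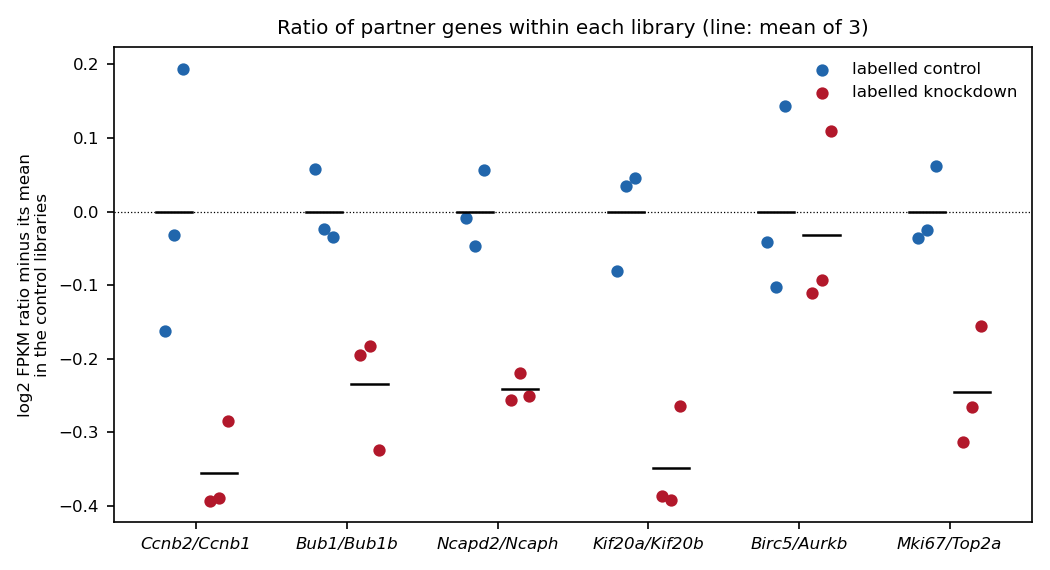
Log2 ratio of FPKM between partner genes in each library, with the mean of the control libraries set to 0 for each pair. Black lines are means of 3. Each pair sets a gene that fell over a member that did not pass. In 5 pairs all 3 libraries labelled knockdown lie below the 3 labelled control (mean differences from -0.36 to -0.23), and Birc5/Aurkb overlaps; on recovered fragments Bub1/Bub1b overlaps and Birc5/Aurkb does not.

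Another 75 mitotic genes that are not members were read in the same fit. Of these 2 fell and 73 did not pass, with a median log2 fold change of -0.13. At an unadjusted p under 0.05, 25 were lower (12.2% of all tested genes) and 4 higher (10.2%). EdgeR called 18 lower (4.5% of its tested genes) and 2 higher (5.45%), and DESeq2 12 lower (3.38%) and 1 higher (4.15%). Cdca3, a trigger of mitotic entry, was at 30.8, 31.4 and 32.1 against 41.7, 41.7 and 40.8 FPKM (log2 -0.40, limma adjusted p = 0.0103; edgeR adjusted p = 0.0733). Cenpi, an inner kinetochore subunit, was at 12.4, 12.8 and 11.6 against 16.5, 16.3 and 15.5 FPKM (log2 -0.39, limma adjusted p = 0.0329). Neither group of either gene overlapped the other. In the limma fit 2.67% of the list fell, against 1.61% of all tested genes.

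Genes of the preceding phases, measured in the same libraries, stood as follows. Of 42 DNA replication and G1/S genes 10 fell and 32 did not pass, with a median log2 fold change of -0.24. That is 23.8% of the list, where 1.61% of all tested genes fell. At an unadjusted p under 0.05, 27 were lower (12.2% of all tested genes) and 0 higher (10.2%). EdgeR called 15 lower (4.5% of its tested genes) and DESeq2 14 (3.38%), and each called 0 higher. The 6 of smallest p were Pold1, Mcm5, Rfc4, Cdt1, Mcm3 and Cdc6, which encode a polymerase subunit, subunits of the replicative helicase, a clamp loader subunit and helicase loading factors. Their log2 fold changes ran from -0.69 (Pold1) to -0.33 (Mcm3), with limma adjusted p from 0.0103 to 0.0191. Of 12 genes for G1 cyclins, their kinases and CDK inhibitors 9 were tested, and 1 passed: Cdkn1a, the inhibitor p21, rose from 135 ± 4.13 to 163 ± 3.60 FPKM (log2 0.27, limma adjusted p = 0.0198). Among 20 genes for E2F factors, pocket proteins and B-Myb complexes, E2f8, a repressor of the E2F family, fell from 27.5 ± 2.69 to 20.6 ± 0.779 FPKM (limma adjusted p = 0.0427). Mybl1, the A-Myb gene, rose from 7.59 ± 1.04 to 11.1 ± 0.195 FPKM (limma adjusted p = 0.0466), and 18 did not pass. The median of that list was -0.05. Over all tested genes 3.44% passed in either direction, the share to set beside the few calls in these 2 short lists. In 19 other settings Cdkn1a passed in 12, E2f8 in 9 and Mybl1 in 8; with 1 library left out E2f8 and Mybl1 did not pass whichever it was. EdgeR gave Mybl1 a smaller log2 fold change of 0.34.

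The lncRNA table offers another readout at these loci. It pairs 30 transcripts with 17 of the members, of which 17 are natural antisense, 10 bidirectional, 2 intronic antisense and 1 exon sense-overlapping. Only 12 reached 0.1 FPKM in 3 of 6 libraries. Of these 1 passed, against 4.26% of the 4955 lncRNA transcripts tested. It is a transcript of 2010110K18Rik that runs head to head with Cdc25c, listed at 0 in knockdown 1 to 3 and at 0.187, 0.789 and 0.555 FPKM in control 1 to 3 (limma adjusted p = 0.0497). With a filter of 0.5 FPKM 0 paired transcripts passed. A further transcript of the same gene was at 0.208, 0.127 and 0.0994 against 0.308, 0.325 and 0.280 FPKM and did not pass (limma adjusted p = 0.356).

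For 9 members the locus in the table overlaps another gene, among them Foxm1, Kif20a, Ccna2, Cdc25b and Ncapg, so their values rest on how the authors' tools shared fragments between transcripts. Limma on FPKM and edgeR on fragments differed most for Aurkb and Hmmr, given above, and next for Spc25 (log2 0.08 and 0.16), Knstrn (-0.19 and -0.10), Bub1b (-0.09 and -0.17) and Cenpf (-0.10 and -0.18).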

How the data were processed

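RNA of 6 libraries was read from ribosome-depleted, stranded libraries, per the labels' protocols. Per the submitters' processing notes the reads went through cutadapt, HISAT2 2.0.4, Cufflinks and Cuffdiff 2.2.1, with the builds mm10 and mm9 named without roles; for the annotation release and the strand setting, the answer is "not given in the sources used here"; neither was assumed. FPKM values, deposited by the authors per gene and per lncRNA transcript, are relative to length and depth. Beside them the authors deposited estimated counts, which are not whole: each column is a fragment number times 1 constant (0.916 to 1.20), and 89.4% to 90.4% of mRNA values divided by it lay within 0.01 of a whole number. Rows of 79 repeated symbols were summed, giving 22482 genes. Coordinates have 1 added to the start, which then equals the GRCm38 RefSeq start of 6261 genes (472 without it), so they are given as mm10.

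The model was fitted to log2(FPKM + 0.1) with limma 3.58.1 in R 4.3.3, using its intensity trend. The filter kept genes that reached 0.5 FPKM, or 0.1 FPKM for lncRNA transcripts, in 3 of 6 libraries (with libraries left out, in as many as the smaller group holds). Tests were two-sided, with Benjamini-Hochberg adjustment over each table. Fold changes on this scale understate those of low genes. EdgeR 4.0.16 (quasi-likelihood, TMM) and DESeq2 1.42.0 were run on recovered fragments rounded to whole numbers. The fit was also run on simulated data with larger changes than those of the called members. That run does not speak to changes of their size. Libraries of a group differed by more than sampling noise (chi-square per gene 2.44 to 6.01). Intervals cover counting error only.

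The members, role groups and lists were chosen with earlier results of these data known. Named genes are Myocd, members that passed, the 2 of smallest p in each role group, and up to 6 called genes of each other list; further members are named to account for all 50. Spc24 is named beside the other NDC80 subunits. Endothelial, macrophage, fibroblast, mesothelial and smooth muscle marker lists were matched by symbol. Alternatives were other pseudocounts, filters, scalings, models, left-out libraries and count tools.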

Additional observations from a re-analysis of the deposited data

How the results depend on the processing

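Over 19 other settings the 8 called members kept their sign, whereas 10 members that did not pass crossed 0 in at least 1 (Ccnb1, Cdk1, Mad2l1, Ube2c, Kif4, Kif20b, Cenpf, Hmmr, Top2a and Smc4). Among settings with all 6 libraries, the count of members called was 7 to 10 under the other pseudocounts, filters and scalings and under robust limma, 0 without the trend, 3 with replicate number as a block, 22 with edgeR and 15 with DESeq2; it was 0 without both libraries numbered 3 and ran from 0 to 3 with 1 library left out. All 8 called members were also called by edgeR and by DESeq2. For all genes, 400 passed; the count was 144 without the trend, 243 with the block, 76 without both libraries numbered 3, 1150 with edgeR, 717 with DESeq2, and 44 to 178 with 1 library left out. Of the other mitotic genes 2 passed, 0 without both libraries numbered 3, 20 with edgeR, 13 with DESeq2, and 0 to 1 with 1 library left out. Of the replication genes 10 passed, 6 without the trend, 0 without both libraries numbered 3, and 1 to 7 with 1 library left out. Of the paired lncRNA transcripts 1 passed, and 0 with a filter of 0.5 FPKM. What libraries with the same replicate number have in common is not stated. Their deviations correlated at 0.04, -0.00 and 0.10, and those of libraries with unlike numbers at -0.09 to 0.06. The block therefore cannot decide whether they are paired. Without 1 library the smaller group has 2. Among members depth is lowest for Cdc25c, at 193 fragments in 1 library.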
